A study of Sus scrofa with 12 samples.

Results

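The mRNAs that carry cholesterol and convert it to androgen in Leydig cells were measured in the testes of boars of 2 breeds and 2 ages. These core genes are STAR, CYP11A1, FDX1, FDXR, CYP17A1, POR, HSD3B1 and SRD5A1. They were taken by gene symbol from the table of coding genes, and all 8 were found among its 21674 mRNAs. The study asked how Hezuo pigs, a Chinese breed, reach sexual maturity early, with Landrace pigs as the control. Testes were obtained by castration from 12 boars that were reared under the same conditions. Ribosomal RNA was removed and strand-specific libraries were sequenced, with 3 boars and 3 libraries in each group. The groups were Hezuo boars of 30 days (Ha), Hezuo boars of 120 days (Hb), Landrace boars of 30 days (La) and Landrace boars of 120 days (Lb). The replicates are separate animals, so the spread between libraries includes that between boars.

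Leydig cells lie between the seminiferous tubules and make androgen when luteinizing hormone acts on its receptor. Steroid synthesis starts in the mitochondrion, where cholesterol is brought to the inner membrane and loses its side chain, and it goes on in the smooth endoplasmic reticulum, where cytochrome P450 and dehydrogenase enzymes turn the product into androgens. The boar testis is known for a large output of steroids, among them androgens, estrogens and the odorous androstenes.

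Summed over all mRNAs, a library held from 17165519 (Hb3) to 23758931 (Ha1) estimated counts. Levels are given as CPM, which are counts scaled to library size with TMM over the 12 libraries, or as FPKM, the deposited values per length of transcript. The core genes held at least 118 counts (STAR in Hb3) and at most 155817 counts (CYP17A1 in La1) in a library. Counting error was thus small beside the wide spreads between boars described below. Where libraries lay close together, as for STAR in Hb2 and Hb3, it was not small beside their spread. All 8 passed the filter on low counts in each comparison. Calls come from the quasi-likelihood test of edgeR and need both an adjusted p (Benjamini-Hochberg) under 0.05 and a log2 fold change past 1 in size. Each log2 fold change sets the second group named over the first and comes with its standard error (SE). An exact permutation test of 3 libraries against 3 cannot give a p under 0.1, so each adjusted p rests on the model of variance across genes.

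Positions are those of the build Sscrofa11.1. STAR (ncbi_396597) lies on chromosome 15 from 48377597 to 48385398. CYP11A1 (ncbi_403329) is found on chromosome 7 from 59172829 to 59188479. Its electron carriers are FDX1 (ncbi_397133), on chromosome 9 from 38376147 to 38399026, and FDXR (ncbi_100512919), on chromosome 12 from 6372224 to 6382769. CYP17A1 (ncbi_403330) occupies chromosome 14 from 113805616 to 113820445. Its partner POR (ncbi_100170114) is on chromosome 3 from 10212734 to 10272184. HSD3B1 (ncbi_445539) is on chromosome 4 from 101565229 to 101574110, and SRD5A1 (ncbi_100518046) is on chromosome 16 from 75309830 to 75335438. No 2 of the 8 genes share a chromosome.

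One library stood apart from its group in Leydig genes. It also had the most higher mRNAs over the whole table, though not the most lower ones. Hb1 held 145 mRNAs at 4 or more times the level of both other Hb libraries, among the 15791 mRNAs that reached 1 CPM in the group, and 203 mRNAs that were lower by as much. STAR, CYP11A1, CYP17A1 and SRD5A1 were 4 of the 145. The same count was 88 higher and 234 lower for Hb2, and 93 higher and 210 lower for Hb3. In the other 3 groups a library had between 9 and 96 such higher mRNAs, and no core gene was among those of any library but Hb1. The levels in Hb1 over the mean of Hb2 and Hb3, on the CPM scale, came to 71.3 for CYP17A1, 17.5 for STAR, 9.83 for CYP11A1, 6.44 for SRD5A1 and 4.37 for FDXR. The ratio was 3.04 for FDX1, 2.06 for POR and 1.22 for HSD3B1. Leydig genes outside the 8 shared this, with a ratio of 31.5 for INSL3, the peptide hormone of Leydig cells, and 4.30 for LHCGR, the receptor of luteinizing hormone. Some genes that are not named here by rule were also high in Hb1, chosen after their values were seen, such as DHRS4, a dehydrogenase, at 2052 CPM in Hb1 against 35.3 and 42.3 CPM. Stromal markers went both ways in Hb1, from a ratio of 0.37 for PDGFRB to 6.12 for COL3A1, a collagen chain. HSD17B3, which makes testosterone, was not higher in Hb1 (ratio 0.645). The results of the core genes that use Hb are therefore given with and without Hb1, and so are some of those of other genes. Hb1 was singled out after its levels of core genes were seen. Calls without it, and their shares beside all mRNAs, follow in part from that choice.

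The first comparison asks what changed with age in the early maturing breed. Transcripts of the path were abundant in Hezuo testes at 30 days and scarce at 120 days: the 8 genes together held 1.002%, 0.986% and 0.839% of all mRNA counts in the Ha libraries and 0.184%, 0.0184% and 0.0145% in the Hb libraries. STAR, CYP11A1, FDX1, FDXR, POR and HSD3B1 fell (6 of 8 called lower, against 23.2% of the 16548 mRNAs tested). CYP17A1 and SRD5A1 were not called, and in both the library Hb1 lay far above Hb2 and Hb3. Without Hb1, all 8 were called lower, against 22% of mRNAs. That count follows in part from the choice of Hb1, which was made by its levels of these genes. In 7 of 8, SRD5A1 being the exception, each Ha library lay above each Hb library, a pattern that 37.6% of the mRNAs tested showed. These levels are shares of the RNA in a library, so they also depend on how much RNA other cells give. In bulk tissue, fewer Leydig cells, less RNA per Leydig cell and more RNA from other cells cannot be told apart.

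STAR, which delivers cholesterol to the inner mitochondrial membrane, stood at 2511, 2875 and 1963 CPM in Ha and at 127, 6.69 and 7.78 CPM in Hb. The groups did not overlap, and Hb2 and Hb3 held almost none of the transcript. The group means were 2449.6 ± 459 CPM in Ha and 47.1 ± 69.0 CPM in Hb (SD, n = 3 each). STAR fell by 5.69 on the log2 scale (SE 1.25, adjusted p 0.00496), and without Hb1 it fell by 8.40 (SE 0.29, adjusted p 7.14e-06). CYP11A1, which cleaves the side chain of cholesterol to give pregnenolone, was at 1977, 1568 and 1261 CPM in Ha and at 231, 27.2 and 19.8 CPM in Hb. It was high in each young Hezuo boar, intermediate in Hb1 and low in Hb2 and Hb3. CYP11A1 fell by 4.10 (SE 0.97, adjusted p 0.00696), and without Hb1 it fell by 6.08 (SE 0.31, adjusted p 2.1e-05).

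FDX1, the small iron-sulfur protein that hands electrons to mitochondrial P450 enzymes, was at 154, 139 and 143 CPM in Ha and at 57.0, 21.1 and 16.4 CPM in Hb. FDXR, the reductase that charges FDX1, was at 353, 332 and 323 CPM in Ha and at 105, 32.0 and 16.2 CPM in Hb. Both carriers were even among the young boars and spread among the older ones. FDX1 fell (log2 fold change -2.20, SE 0.45, adjusted p 0.00351) and FDXR fell by 2.71 (SE 0.63, adjusted p 0.00633). Without Hb1, FDX1 fell by 2.95 (SE 0.16) and FDXR fell by 3.79 (SE 0.31). POR, which passes electrons to P450 enzymes of the endoplasmic reticulum and so serves other tissues and cells too, was at 354, 328 and 299.6 CPM in Ha and at 86.9, 47.5 and 36.7 CPM in Hb. Its Hb libraries lay nearer to each other than those of the mitochondrial genes. POR fell by 2.52 (SE 0.32, adjusted p 0.000336), and without Hb1 it fell by 2.95 (SE 0.17).

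CYP17A1, the 17-hydroxylase and lyase that leads from progestogens to androgens, was at 3617, 3493 and 3538 CPM in Ha and at 1444, 21.2 and 19.3 CPM in Hb. The Ha libraries were nearly equal, while Hb1 held 71.3 times the mean of Hb2 and Hb3. Because of that spread its log2 fold change of -2.83 had an SE of 1.53 and was not called (adjusted p 0.134). Without Hb1, CYP17A1 fell by 7.45 (SE 0.18, adjusted p 5.89e-06). With Hb1 as the only Hb library, an alternative chosen after seeing the data, it was called at -1.30 (SE 0.11, adjusted p 0.000676), with a variance that then comes from the Ha libraries alone. Without Hb3 it was not called (-2.26, adjusted p 0.199). Limma on FPKM also called CYP17A1 with all 6 libraries, at -5.77 (adjusted p 0.00799). So did edgeR with the replicate number as a block, at -5.97 (adjusted p 0.0264), though the design does not pair the boars.

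HSD3B1, which turns pregnenolone-type steroids into progesterone-type ones, was at 66.6, 93.0 and 72.0 CPM in Ha and at 29.0, 19.5 and 28.1 CPM in Hb. Hb1 did not stand out here. HSD3B1 fell by 1.60 (SE 0.21, adjusted p 0.000417), and without Hb1 it fell by 1.69 (SE 0.23). SRD5A1, a reductase that acts on testosterone and related steroids in many tissues, was at 102, 96.1 and 55.5 CPM in Ha and at 124, 18.9 and 19.7 CPM in Hb. Its level in Hb1 was above all Ha libraries, and its levels in Hb2 and Hb3 were below them. The log2 fold change of SRD5A1 was -0.63 (SE 0.72, adjusted p 0.459), and without Hb1 it was called at -2.13 (SE 0.29, adjusted p 0.000959). With Hb1 as the only Hb library the direction turned (0.55, SE 0.35, adjusted p 0.221).

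**Figure D1:**
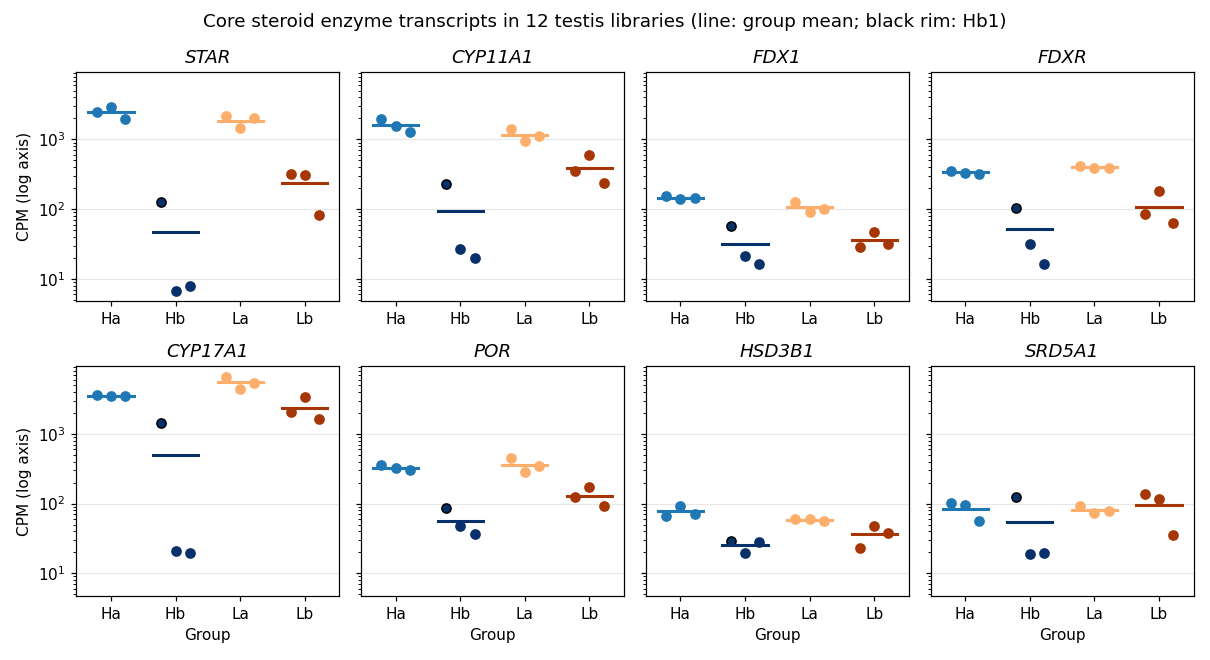
Levels of the 8 core genes in each library (points, CPM on a log axis) with the mean of each group (line, n = 3) and Hb1 marked by a black rim. Ha and La libraries lie high and close together for STAR, CYP11A1, FDX1, FDXR, CYP17A1 and POR, while Hb1 lies above Hb2 and Hb3 for each gene, by 71.3 times their mean for CYP17A1 and by 1.22 times for HSD3B1.

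The second comparison asks what changed with age in the control breed. Landrace testes held less of the path at 120 days as well: the 8 genes together held 1.20%, 0.835% and 1.01% of mRNA counts in the La libraries and 0.295%, 0.452% and 0.230% in the Lb libraries. STAR, CYP11A1, FDX1, FDXR, CYP17A1 and POR fell (6 of 8 called lower, against 20.1% of the 16637 mRNAs tested). HSD3B1 and SRD5A1 were not called. In 7 of 8, again without SRD5A1, each La library lay above each Lb library, as in 37.3% of mRNAs.

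STAR was at 2141, 1449 and 2011 CPM in La and at 324, 309.7 and 83.3 CPM in Lb. Lb3 was the lowest of the older boars, and each Lb library was far under each La library. STAR fell by 2.96 on the log2 scale (SE 0.46, adjusted p 0.000498) from a mean of 1867 ± 368 CPM to 239 ± 135 CPM (SD, n = 3 each). CYP11A1 was at 1424, 953 and 1112 CPM in La and at 355, 589.9 and 238 CPM in Lb. CYP11A1 fell by 1.55 (SE 0.30, adjusted p 0.00186), with Lb2 highest among the older boars. When all 12 libraries shared 1 fit, which then also carries the spread of Hb, CYP11A1 was not called (-1.56, adjusted p 0.0759).

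FDX1 stood at 125, 91.2 and 101 CPM in La and at 28.3, 46.6 and 31.7 CPM in Lb. FDXR stood at 422, 388 and 385 CPM in La and at 84.0, 180.2 and 62.3 CPM in Lb. POR stood at 447, 287 and 351 CPM in La and at 124, 174 and 91.6 CPM in Lb. For these 3 electron carriers the groups were apart and Lb2 was the highest of the older Landrace boars. FDX1 fell by 1.56 (SE 0.20, adjusted p 0.000192), FDXR fell by 1.86 (SE 0.34, adjusted p 0.00128) and POR fell by 1.47 (SE 0.24, adjusted p 0.000722).

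CYP17A1 was at 6610.3, 4463 and 5383 CPM in La and at 2098, 3419 and 1658 CPM in Lb. The fall was by 1.19 on the log2 scale (SE 0.26, adjusted p 0.0034), the smallest of the 6 called falls in Landrace. It was not called in the fit of all 12 libraries (-1.20, adjusted p 0.372), and without Lb3 it missed the fold change threshold (-0.98, adjusted p 0.00911). HSD3B1 was at 60.2, 61.1 and 55.8 CPM in La and at 22.8, 47.9 and 38.0 CPM in Lb. The groups did not overlap, and its log2 fold change of -0.69 (SE 0.24, adjusted p 0.03) missed the fold change threshold. Limma on log2(FPKM + 1) called it at -1.01. SRD5A1 was at 92.0, 74.5 and 77.6 CPM in La and at 135, 117 and 35.2 CPM in Lb. Its groups overlapped, and its log2 fold change of 0.24 (SE 0.40, adjusted p 0.605) was -0.25 and -0.27 in limma on FPKM and 0.05 with library totals in place of TMM, so that its direction is not settled.

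The scaling moved the values of changes with age. The median log2 fold change of all mRNAs tested under TMM was -0.02 in Hezuo (Ha vs Hb) and 0.01 in Landrace (La vs Lb). Library totals without TMM moved these medians to -0.32 and -0.16, FPKM with a pseudocount of 1 to -0.28 and -0.16, and FPKM with a pseudocount of 0.1 to -0.47 and -0.27. In Ha vs Hb the share of called mRNAs that were higher went from 54.8% to 44.1% without TMM, and to 42.3% and 38.5% on FPKM. In La vs Lb it went from 57.7% to 46.1% with FPKM + 0.1. The calls of STAR, CYP11A1, FDX1, FDXR and POR were made under each of these scalings in both breeds.

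**Figure D2:**
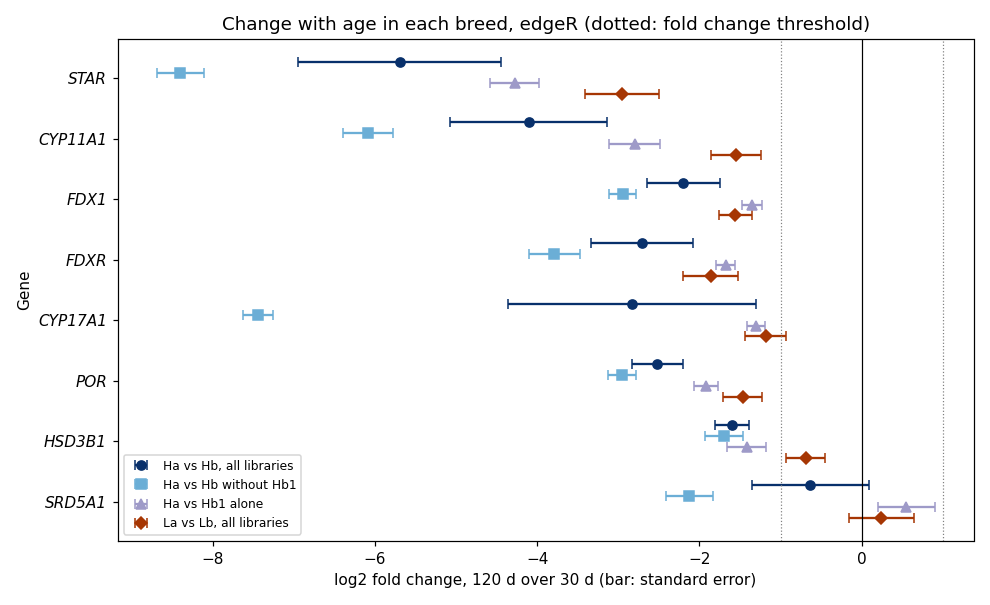
Log2 fold changes of the 8 core genes from 30 to 120 days (x axis, points with bars of 1 standard error) in Hezuo boars with all libraries, without Hb1 and with Hb1 as the only Hb library, and in Landrace boars. The points without Hb1 lie farthest to the left for each gene, at -8.40 for STAR and -7.45 for CYP17A1, and SRD5A1 is the gene with points on both sides of 0.

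Genes that bring cholesterol to the path changed with age in several directions. The counts of this and the other lists stand beside those of all mRNAs, of which 4666 rose and 3844 fell among 16548 in Ha vs Hb, and 4574 rose and 3352 fell among 16637 in La vs Lb. Of the 14 in Ha vs Hb, 6 fell and 1 rose, with a median log2 fold change of -0.76. In La vs Lb, 7 of 14 fell and 1 rose, with a median of -0.91. SCARB1, the receptor that takes up cholesterol esters from lipoprotein, was at 919, 819 and 933 CPM in Ha and at 168, 88.1 and 56.8 CPM in Hb, and fell by 3.09 (SE 0.39) in Hezuo, where it fell by 3.61 without Hb1, and by 2.15 (SE 0.35) in Landrace. SQLE, an enzyme of cholesterol synthesis, was not called in either breed. It was higher by 0.95 (SE 0.16, adjusted p 0.00138) in Hezuo, under the fold change threshold, and at 0.19 (adjusted p 0.407) in Landrace. VDAC1, a channel of the outer mitochondrial membrane, fell by 2.37 and 1.60. LIPE, the lipase that frees cholesterol from its esters, rose by 4.23 (SE 0.24) and 3.51 (SE 0.32), from 14.8, 12.7 and 10.4 CPM in Ha to 248, 178 and 289 CPM in Hb. It was high in each of the 6 older boars.

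Of the genes for later and side steps, 4 of the 8 tested fell in Ha vs Hb (median -1.35) and 4 of the 7 tested fell in La vs Lb (median -1.02). CYB5A, the cytochrome b5 that favours the lyase reaction of CYP17A1, was at 3260, 3359 and 2999 CPM in Ha and at 681, 222 and 160.4 CPM in Hb. It followed the core genes, with a log2 fold change of -3.17 (SE 0.54, adjusted p 0.00152) in Hezuo, -4.06 (SE 0.21) without Hb1, and -1.66 (SE 0.21) in Landrace. HSD17B3, the testis enzyme that makes testosterone, fell in Landrace by 1.02 (SE 0.10) and was not called in Hezuo (-0.33, SE 0.22, adjusted p 0.228), a difference between the breeds that was not called either (interaction -0.71, adjusted p 0.117). SULT2A1, which adds sulfate to steroids, resembled CYP17A1: it was at 40.9, 43.7 and 55.9 CPM in Ha and at 44.4, 0.789 and 0.725 CPM in Hb. Its log2 fold change in Hezuo was -1.61 (SE 1.32, adjusted p 0.304), and without Hb1 it was called at -5.93 (SE 0.27). In Landrace it was called at -1.07 (SE 0.34, adjusted p 0.021), and the interaction was 0.54 (adjusted p 0.861). HSD17B2, which inactivates testosterone, was called lower at 120 days in both breeds, from between 47.0 and 74.6 CPM in Ha and between 24.5 and 35.8 CPM in La to 3 counts or fewer in each older library. HSD17B1 was at 0 counts in all 12 libraries and CYP19A1, an aromatase, reached at most 0.269 CPM, so neither was tested. CYP19A3, a gene of the same family chosen after its values were seen, was at 106, 16.9 and 15.3 CPM in Hb. SRD5A2 was called in Hezuo alone (-1.09, SE 0.41, adjusted p 0.0444; interaction 0.65, adjusted p 0.499), and not without Hb1 (-0.81, adjusted p 0.0984).

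Of 12 genes for hormonal and transcriptional control, 9 fell in Ha vs Hb (median -1.74), and 7 fell and 1 rose in La vs Lb (median -1.38). LHCGR was at 165, 133 and 183 CPM in Ha and at 61.5, 21.8 and 6.86 CPM in Hb. It was at 338, 227 and 355 CPM in La and at 109, 135 and 90.7 CPM in Lb. LHCGR fell by 2.41 (SE 0.68, adjusted p 0.0148) in Hezuo, by 3.46 without Hb1 and by 1.45 (SE 0.20) in Landrace. NR5A1, the factor SF-1 that drives steroidogenic genes, fell by 2.09 (SE 0.21) and 1.38 (SE 0.13), and GATA4, which Leydig and Sertoli cells both express, by 2.19 (SE 0.18) and 1.48 (SE 0.16). NR0B1, known as DAX1 and a repressor of steroidogenic genes, rose in Landrace by 1.68 (SE 0.24, adjusted p 0.000345) and was not called in Hezuo (-0.41, SE 0.23), with a called interaction of 2.07 (adjusted p 0.0074). PRKAR1A and PRKACA, subunits of protein kinase A, were not called in either breed. PRKACA was higher by 0.89 (adjusted p 0.00088) in Hezuo and 0.87 (adjusted p 0.000143) in Landrace, under the fold change threshold. PRKAR1A was at 0.61 (adjusted p 0.00507) in Hezuo, also under it, and at -0.02 (adjusted p 0.842) in Landrace.

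Relatives of the core genes did not move as 1 group. Of the 4 matched, HSD3B7, an enzyme of bile acid synthesis, fell by 2.33 and 1.72, and STARD6, a relative of STAR, rose by 4.65 and 4.15. STARD5 was called in Ha vs Hb alone (-1.79, SE 0.57, interaction 0.81 with adjusted p 0.475), and its call was lost without Hb1 (-1.70, adjusted p 0.0683). CYB5B was not called in either breed. The 4 had a median of -0.76 in Hezuo (Ha vs Hb) and of -0.14 in Landrace (La vs Lb). FDX2, CYB5R3 and CYP11B1 were not found under their symbols and were matched by description after the files were seen, while SRD5A3 was left out. FDX2 (LOC100526209) had group means between 8.69 and 10.2 CPM, and CYB5R3 (LOC100524254) had group means between 273 and 388 CPM. Neither was called in any comparison.

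CYP11B1 (LOC110260194), which adds a hydroxyl group to steroids at carbon 11, gave a pattern unlike that of the core genes. It was at 214, 202 and 299.9 CPM in Ha and at 13.1, 1.86 and 0.923 CPM in Hb. In Landrace it was at 14.4, 29.7 and 25.0 CPM in La and at 59.1, 37.0 and 10.1 CPM in Lb. Young Hezuo boars were thus far above every other library. It fell by 5.49 (SE 0.91, adjusted p 0.00132) in Hezuo (-7.36, SE 0.37, without Hb1), had a log2 fold change of 0.63 (SE 0.53, adjusted p 0.317) in Landrace and was 3.37 lower on the log2 scale in La than in Ha (-3.37, SE 0.28, adjusted p 0.000587). The interaction was 6.12 (SE 1.12, adjusted p 0.0118), and 8.01 without Hb1. CYP21A2, of the later and side steps, was called in the same comparisons and directions. It fell by 6.42 (SE 0.65) in Hezuo and was not called in Landrace (-0.81, SE 0.81). It was lower in La than in Ha (-1.85, SE 0.15), and its interaction was 5.60 (SE 1.26).

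Markers of cell types moved with these results, and their part in them was not tested. Among markers of Leydig cells outside the 8 genes (INSL3, LHCGR and HSD17B3, of which LHCGR and HSD17B3 were also counted above), 1 of 3 fell in Ha vs Hb (median -0.99) and 2 of 3 in La vs Lb (median -1.02). Their summed level was 1914, 1556 and 1916 CPM in Ha and 2235, 257 and 193 CPM in Hb. In Landrace it was 3441, 2399.5 and 2649 CPM in La and 2123, 3050.2 and 1068 CPM in Lb. INSL3 made up 81.3% of it over the 12 libraries pooled, and a smaller share in Hb2 (97.4 CPM) and Hb3 (34.8 CPM). The shares of the sums given below are pooled in the same way and can differ between groups. INSL3 was at 1622, 1267 and 1539.6 CPM in Ha and at 2081, 97.4 and 34.8 CPM in Hb. In Landrace it was at 2733, 1812 and 1958 CPM in La and at 1849.9, 2744 and 792 CPM in Lb. Hb1 thus held as much INSL3 as younger boars, while Hb2 and Hb3 held little. Its log2 fold change was -0.99 (SE 1.26, adjusted p 0.504) in Hezuo, where it was called without Hb1 (-4.47, SE 0.48, adjusted p 0.000368), and -0.26 (SE 0.38, adjusted p 0.549) in Landrace.

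Spermatocyte and spermatid markers rose, while spermatogonial markers went both ways. Of the spermatid markers tested, 9 of 9 rose in each breed, beside 4666 of 16548 mRNAs in Hezuo and 4574 of 16637 in Landrace, with a median of 11.06 for Hezuo (Ha vs Hb) and of 9.25 for Landrace (La vs Lb). With genes at or under 3 counts in the younger group set at that floor, the medians were 10.74 and 9.19. The summed spermatid level was 4.99, 5.54 and 6.48 CPM in Ha and 6524, 5789 and 8232 CPM in Hb, with PRM1, a protamine, as the most abundant (34.6%). In Landrace the sum was 8.87, 7.74 and 4.41 CPM in La and 4193, 3452 and 3154 CPM in Lb. Hb1 was near the other Hb libraries in this. TNP1 was at 0 counts in 2 Ha and 2 La libraries, AKAP4 and ACRV1 were at 0 in 1 Ha library each, and PRM2 was at 0 in 2 La libraries. SPACA3 was at 0 in 5 libraries, among them Hb1, and was not tested with age when all libraries were used. Without Hb1 it was called higher in Ha vs Hb (adjusted p 0.000106). All 8 spermatocyte markers rose in both breeds (medians 3.58 and 4.26). Their sum was 31.7, 35.6 and 19.9 CPM in Ha and 783, 676 and 651 CPM in Hb. In Landrace it was 16.1, 14.1 and 12.7 CPM in La and 502, 485 and 494 CPM in Lb. PIWIL1 made up 62.5% of this sum over the 12 libraries pooled. The share of PIWIL1 was smaller at 30 days, since it rose by 5.83 in Hezuo and 6.49 in Landrace on the log2 scale. Of 11 spermatogonial markers, 3 rose and 6 fell in Ha vs Hb (median -1.01), and 4 rose and 5 fell in La vs Lb (median -0.53). Their sum was 369, 363 and 304 CPM in Ha and 857, 820.3 and 817 CPM in Hb. In Landrace it was 223, 222 and 231 CPM in La and 701, 638 and 657 CPM in Lb. DDX4 made up 48.1% of this sum over the 12 libraries pooled. Its share was smaller at 30 days, since it rose by 4.79 in Hezuo and 4.91 in Landrace on the log2 scale. NANOS2 was at 0 in Hb1 and Lb2, and STRA8 was at 0 in La2.

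Of the markers of other somatic cells, many but not all were lower at 120 days. Of 10 peritubular and stromal markers, 8 fell in Ha vs Hb (median -2.83), and 5 fell and 1, ACTA2, rose in La vs Lb (median -1.14). Their sum was 4731, 4586 and 4509 CPM in Ha and 608, 354 and 255 CPM in Hb. In Landrace it was 6908, 6180.4 and 7613 CPM in La and 3084, 3007 and 2571 CPM in Lb. COL3A1 made up 57.6% of this sum over the 12 libraries pooled, but was at only 44.4 CPM in Hb2 and 33.9 CPM in Hb3. Among the Hb libraries this sum was highest in Hb1 through COL3A1 and COL1A2 (ratios to the mean of Hb2 and Hb3 of 6.12 and 5.07), while PDGFRB, DES, ACTA2 and LUM were lower there (0.370 for PDGFRB to 0.8398 for LUM). All 5 macrophage markers fell in Hezuo (median -3.01) and 4 of 5 fell in Landrace (median -1.80). Their sum, 48.9% of it CSF1R, was 124, 101 and 106 CPM in Ha, 17.5, 20.1 and 10.7 CPM in Hb, 122, 107 and 115 CPM in La and 21.3, 37.8 and 35.9 CPM in Lb. All 5 endothelial markers fell in Hezuo (median -2.31) and 3 of 5 in Landrace (median -1.25). Their sum, 68.9% of it VWF, was 669, 681 and 616 CPM in Ha, 173, 305 and 186 CPM in Hb, 795, 627 and 756 CPM in La and 316, 497 and 278 CPM in Lb, and EMCN was at 0 in Hb2 and La3. Of 8 Sertoli markers, GATA4 being also among the control genes, 4 fell in each breed (medians -1.12 and -0.97). Their sum, 41.5% of it INHA, was 1269.8, 1209.6 and 1664 CPM in Ha, 405, 579 and 467 CPM in Hb, 2642, 3213 and 2914 CPM in La and 605, 753 and 640.5 CPM in Lb. Of the 2 adrenal-like markers found by symbol, which leaves out CYP11B1, MRAP made up 98.7% and fell in both breeds (-2.69 and -2.04), and MC2R reached at most 0.648 CPM, was at 0 in La1 and was not tested. Their sum was 25.9, 14.1 and 25.7 CPM in Ha, 5.97, 1.07 and 3.82 CPM in Hb, 35.3, 32.2 and 31.5 CPM in La and 8.60, 11.2 and 5.18 CPM in Lb.

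Without Hb1 most counts of these lists in Ha vs Hb were near those above. For cholesterol supply 6 of 14 were lower and 1 higher (median -0.78), for later and side steps 4 of 8, with SULT2A1 in place of SRD5A2, and 1 higher (median -2.44), for control 9 of 12 (median -1.67) and for stromal markers 9 of 10 (median -2.73). The Leydig markers outside the 8 genes came to 2 of 3 lower (median -3.46), since INSL3 was then called. Of the spermatogonial markers 3 were higher and 4 lower, and of the endothelial markers 4 of 5 were lower. The spermatocyte, spermatid, Sertoli, macrophage and adrenal-like markers tested with all libraries kept their counts. SPACA3 was then tested as well, which brought the spermatid markers to 10 of 10 higher.

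**Figure D3:**
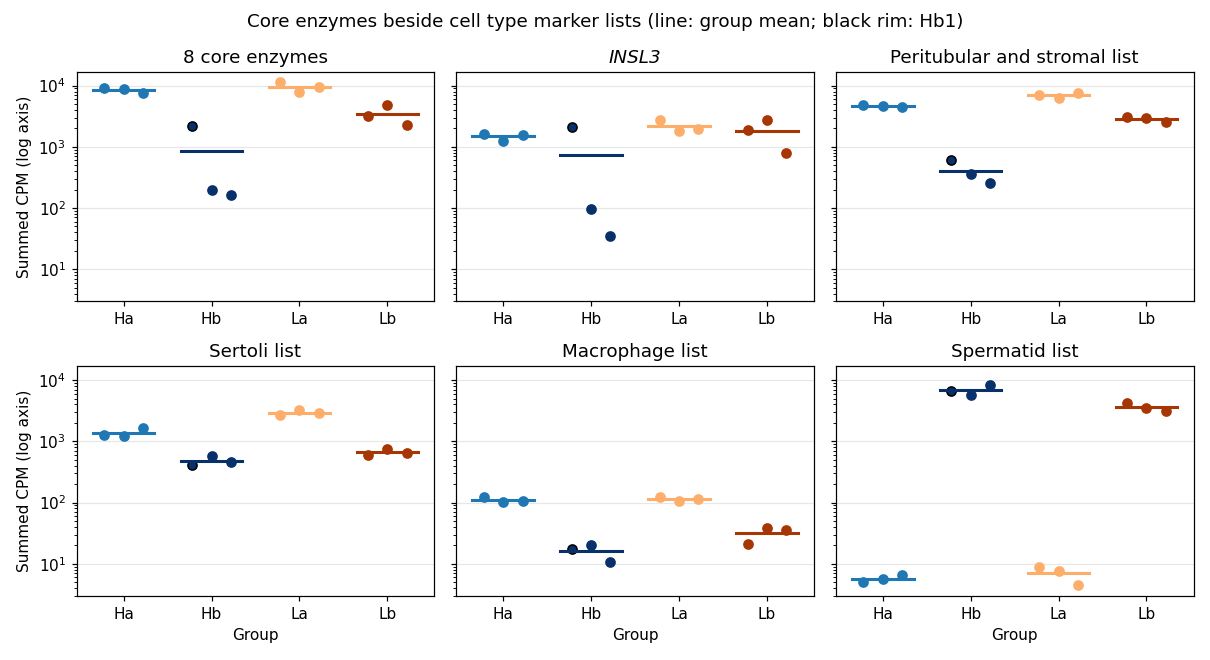
Summed levels (CPM on a log axis) in each library of the 8 core genes, of INSL3 and of 4 marker lists, with group means (line, n = 3) and Hb1 marked by a black rim. Hb1 reaches 2204 CPM for the core genes against 194 and 164 CPM in Hb2 and Hb3, and 2081 CPM for INSL3, while the spermatid sum of Hb1 (6524 CPM) lies between those of Hb2 and Hb3.

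The third comparison asks how the breeds differed before puberty. At 30 days the core genes were at similar levels, and none of the 8 was called by edgeR, against 7.62% of the 15648 mRNAs tested. At an unadjusted p under 0.05, 5 of the 8 passed (FDX1, FDXR, CYP11A1, CYP17A1 and HSD3B1), as did 36.4% of mRNAs, and DESeq2 and limma on FPKM also called none. The groups did not overlap in 4 of the 8, as in 41.8% of mRNAs: CYP17A1 and FDXR were higher in La, and FDX1 and HSD3B1 were higher in Ha. CYP17A1 had a mean of 3549 ± 62.8 CPM in Ha and 5486 ± 1077 CPM in La, a log2 fold change of 0.63 (SE 0.14, adjusted p 0.0173) that was under the fold change threshold. FDX1 had means of 145 ± 8.11 and 106 ± 17.3 CPM, with a log2 fold change of -0.46 (SE 0.12, adjusted p 0.0317). For FDXR the log2 fold change was 0.24 (SE 0.08, adjusted p 0.0628), for HSD3B1 -0.39 (SE 0.13, adjusted p 0.0703), and for CYP11A1 -0.47 (SE 0.19, adjusted p 0.125). STAR stood at -0.40 (SE 0.18, adjusted p 0.161), POR at 0.14 (SE 0.16, adjusted p 0.556) and SRD5A1 at -0.06 (SE 0.22, adjusted p 0.873). The signs of POR and SRD5A1 turned when single libraries were left out. The median over the 8 genes was -0.23, and that of all mRNAs was 0.00196.

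Around the core path some genes differed at 30 days, and the counts of most lists were small, as for all mRNAs (1192 of 15648 called, 7.62%). DHCR7, of late cholesterol synthesis, was lower in La (-1.05, SE 0.11, adjusted p 0.00147), the 1 gene called of the 14 of cholesterol supply, whose median was 0.10. HSD17B3 was higher in La by 1.15 (SE 0.14, adjusted p 0.00232), at 369.5, 360.4 and 336 CPM against 127, 157 and 194 CPM in Ha. SULT2A1 was also higher (1.53, SE 0.23, adjusted p 0.00498), while HSD17B2 (-1.03, adjusted p 0.0145) and CYP21A2, the 21-hydroxylase (-1.85, adjusted p 0.000495), were lower in La. The median of the 8 later and side genes tested was -0.14. Of the 12 control genes, NR0B1 was called (-1.21, SE 0.23, adjusted p 0.0105), with a median of 0.13. LHCGR was higher in La by 0.93 (SE 0.18, adjusted p 0.0117), under the fold change threshold, and no relative of the core genes was called by edgeR, DESeq2 or limma or had an unadjusted p under 0.05.

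Among the cell type lists at 30 days, 1 of 3 Leydig markers (HSD17B3; median 0.93) and 3 of 8 Sertoli markers (AMH, FSHR and INHA; median 0.28) were higher in La. Lower in La were 4 of 8 spermatocyte markers (SYCP1, SYCP2, HORMAD1 and PIWIL1; median -0.89) and 1 of 10 spermatogonial markers tested (DAZL; median -0.55). No stromal marker was called by edgeR (median 0.46, 8 of 10 at an unadjusted p under 0.05), nor were the endothelial (median -0.22, 2 of 5), macrophage (median 0.10, 1 of 5), spermatid (median 0.73, 0 of 5 tested) or adrenal-like markers (0.59 for MRAP, 1 of 1).

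The fourth comparison asks how the breeds differed at 120 days, and its result depends on Hb1. The means of the core genes were higher in Lb than in Hb for all 8, but none was called by edgeR, against 3.85% of the 16311 mRNAs tested. At an unadjusted p under 0.05, POR and CYP11A1 passed (2 of 8), as did 25.5% of mRNAs. DESeq2 and limma on FPKM each called POR alone, at 1.22 (adjusted p 0.00402) in DESeq2. In 3 of the 8 the groups did not overlap, against 32.3% of mRNAs in either direction, and in these 3 (CYP11A1, CYP17A1 and POR) Lb was higher. The largest log2 fold changes were those of STAR (2.41, SE 1.10, adjusted p 0.214), CYP17A1 (2.35, SE 1.44, adjusted p 0.339) and CYP11A1 (2.15, SE 0.87, adjusted p 0.174). POR stood at 1.24 (SE 0.34, adjusted p 0.0741), FDXR at 1.14 (SE 0.65, adjusted p 0.308) and SRD5A1 at 0.88 (SE 0.77, adjusted p 0.5). HSD3B1 stood at 0.55 (SE 0.28, adjusted p 0.262) and FDX1 at 0.23 (SE 0.44, adjusted p 0.777).

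The fits without Hb1 leave out a library that was singled out by its levels of core genes. Without Hb1, STAR, CYP11A1, CYP17A1 and POR were called higher in Lb, 4 of 8 against 2.85% of mRNAs. The log2 fold changes were then 6.90 for CYP17A1 (SE 0.40, adjusted p 0.000725), 5.07 for STAR (SE 0.64, adjusted p 0.0122), 4.08 for CYP11A1 (SE 0.43, adjusted p 0.00622) and 1.64 for POR (SE 0.29, adjusted p 0.0319). SRD5A1 (2.33, SE 0.53, adjusted p 0.06) and FDXR (2.18, SE 0.51, adjusted p 0.0646) were not called. FDX1 (0.94, SE 0.27, adjusted p 0.101) and HSD3B1 (0.64, SE 0.33, adjusted p 0.312) were not called either. With Hb1 as the only Hb library none of the 8 was called by edgeR: CYP17A1 was at 0.81 (SE 0.39), STAR at 0.99 (SE 0.70), and FDX1 and SRD5A1 turned sign, to -0.60 and -0.30. Which of these describes Hezuo boars of 120 days cannot be told from 3 animals.

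No gene of cholesterol supply was called by edgeR in Hb vs Lb (0 of 14, 6 at an unadjusted p under 0.05, median 0.14), nor by limma on FPKM, while DESeq2 called 1. NR4A1, a nuclear receptor that luteinizing hormone induces, was the 1 control gene called (1.54, SE 0.29, adjusted p 0.0298, median 0.70), and STARD6 the 1 relative (-1.04, SE 0.19, adjusted p 0.0268, median 0.27), a call that was lost without Hb1 (adjusted p 0.0508). No later or side gene was called by edgeR (0 of 7 tested, 3 at an unadjusted p under 0.05, median 0.49), while DESeq2 called 2 and limma on FPKM called 1. Without Hb1, CYB5A (2.73, SE 0.27, adjusted p 0.00551) and SULT2A1 (6.40, SE 0.51, adjusted p 0.00232) were called, as were LHCGR (2.96, SE 0.49, adjusted p 0.0258), NR5A1 (1.06, SE 0.20, adjusted p 0.0355) and INSL3 (4.77, SE 0.70, adjusted p 0.0179).

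Of the stromal markers, 5 of 10 were higher in Lb with or without Hb1 (median 1.66), and their part in the levels of the core genes was not tested. COL1A1 was at 9.80, 4.88 and 6.13 CPM in Hb and at 168, 156 and 140.2 CPM in Lb, a log2 fold change of 4.53 (SE 0.26, adjusted p 0.000951). COL3A1 (3.86, SE 0.73), COL1A2 (3.64, SE 0.64), PDGFRB (2.57, SE 0.46) and ACTA2 (1.96, SE 0.24) were the other 4 called. Macrophages had 1 of 5 higher (AIF1, 2.17, median 1.22) and endothelial cells 1 of 5 (PECAM1, 1.41, median 0.83), the latter not called without Hb1. Spermatids had 1 of 10 lower (AKAP4, -1.10, median -0.80). No gene of the other lists was called by edgeR in this comparison. At an unadjusted p under 0.05 there were 2 of 3 Leydig markers (median 1.35), 3 of 8 Sertoli markers (median 0.51), 4 of 8 spermatocyte markers (median -0.39) and 2 of 10 spermatogonial markers (median 0.18). MRAP, the adrenal-like marker tested, was at 1.29 (adjusted p 0.233). The median of all mRNAs was 0.00436 with TMM and 0.12 on FPKM + 0.1, and the share of called mRNAs that were higher went from 68.8% to 79.7% and 79.98% on FPKM.

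Whether the change with age differed between the breeds was tested by the interaction, the change in Landrace minus that in Hezuo, over all 12 libraries. The interaction was above 0 for all 8 genes, and none was called by edgeR, against 5.14% of the 17332 mRNAs tested. At an unadjusted p under 0.05 were POR, CYP11A1 and HSD3B1 (3 of 8, against 24.1% of mRNAs). DESeq2 called none, limma on log2(FPKM + 1) called STAR, CYP11A1 and POR (3), and limma on log2(FPKM + 0.1) called CYP11A1 (1). The values were 2.74 for STAR (SE 1.26, adjusted p 0.21), 2.55 for CYP11A1 (SE 1.02, adjusted p 0.155) and 1.64 for CYP17A1 (SE 1.62, adjusted p 0.575). POR was at 1.04 (SE 0.43, adjusted p 0.163), HSD3B1 at 0.89 (SE 0.34, adjusted p 0.139), SRD5A1 at 0.87 (SE 0.93, adjusted p 0.608), FDXR at 0.84 (SE 0.76, adjusted p 0.536) and FDX1 at 0.63 (SE 0.52, adjusted p 0.498). The calls of HSD3B1 in Hezuo alone and of CYP17A1 in Landrace alone are therefore not shown to differ between the breeds.

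Hb1 was singled out by its levels of core genes, so the calls without it follow in part from that choice. Without Hb1, the interaction was called for 7 of 8, all but HSD3B1 (1.03, SE 0.36, adjusted p 0.11), against 5.61% of mRNAs. It was then 6.28 for CYP17A1 (SE 0.39, adjusted p 1.9e-05), 5.46 for STAR (SE 0.65, adjusted p 0.00153) and 4.55 for CYP11A1 (SE 0.48, adjusted p 0.000718). SRD5A1 was at 2.39 (SE 0.60, adjusted p 0.0377), FDXR at 1.94 (SE 0.52, adjusted p 0.0478), POR at 1.50 (SE 0.34, adjusted p 0.026) and FDX1 at 1.40 (SE 0.29, adjusted p 0.0187). With Hb1 as the only Hb library no core gene was called, CYP17A1 was at 0.10 (SE 0.41), and FDX1, FDXR and SRD5A1 fell below 0. Without Lb1 HSD3B1 was called (1.14, adjusted p 0.0409).

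The called interactions of the pathway lists, beside 890 of all 17332 mRNAs tested (5.14%), were DHCR7 of cholesterol supply (1 of 14), CYP21A2 of the later and side steps (1 of 8) and NR0B1 of the control genes (1 of 12), with medians of -0.17, 0.74 and 0.38. For the relatives (median 0.49) there was none by edgeR, DESeq2 or limma, nor any at an unadjusted p under 0.05. Among markers, 5 of 10 stromal (median 1.49), 1 of 5 endothelial (0.93), 1 of 5 macrophage (1.02) and 2 of 11 spermatogonial genes (0.32) were above 0, and 2 of 10 spermatid genes (-1.42) below 0. No Leydig marker outside the 8 genes (median 0.73, 1 of 3 at an unadjusted p under 0.05), spermatocyte marker (0.74, 4 of 8), Sertoli marker (0.01, 5 of 8) or adrenal-like marker (0.65, 0 of 1) was called by edgeR. Over all mRNAs the median was 0.02 with TMM, 0.17 without TMM and 0.18 on FPKM + 0.1, and the share of called mRNAs above 0 went from 68.4% to 81.6% without TMM. Without Hb1 the called interactions above 0 came to 1 of 14 for cholesterol supply, 3 of 8 for later and side steps, 2 of 12 for control, 2 of 3 for Leydig markers and 6 of 10 for stromal markers.

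The order of the 8 levels was compared per length, in FPKM. In Ha, CYP17A1 led with 1729 ± 28.8 FPKM (SD, n = 3), followed by STAR (819.8 ± 157 FPKM) and CYP11A1 (728 ± 164), whose ranges overlapped. FDX1 (186), FDXR (154), POR (109), HSD3B1 (38.3) and SRD5A1 (21.1 FPKM) came next in Ha, each apart from its neighbour. In La, CYP17A1 stood at 2610.2 ± 497 FPKM, over 4 times STAR (610.5) and CYP11A1 (515), which again overlapped. FDXR (178 FPKM) was above FDX1 (132) in La, the reverse of their order in Ha, and FDX1 and POR (119) overlapped, with HSD3B1 (28.5) and SRD5A1 (19.9) last. In Lb, CYP17A1 (917 ± 315 FPKM) and CYP11A1 (140.1 ± 58.0) were apart from the rest. The ranges of STAR (62.2), FDXR (39.1), FDX1 (36.0) and POR (34.6 FPKM) in Lb each overlapped the next, as did those of SRD5A1 (18.6) and HSD3B1 (14.3). In Hb, each gene overlapped the next in the order, from CYP17A1 (161 ± 266 FPKM) to HSD3B1 (8.95 ± 1.34 FPKM). CYP17A1 was at 468, 7.92 and 6.63 FPKM and STAR at 28.2, 1.72 and 1.83 FPKM in the 3 Hb libraries, so that in Hb2 and Hb3 the young testis's most abundant enzyme was near HSD3B1.

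Ratios of FPKM within a library show which steps moved together. STAR over CYP11A1 was 0.935, 1.35 and 1.15 in Ha and 0.405, 0.182 and 0.289 in Hb, and 1.11, 1.12 and 1.34 in La and 0.675, 0.388 and 0.259 in Lb. In both breeds STAR was thus lower relative to CYP11A1 in each older boar, Hb1 included. CYP17A1 over CYP11A1 averaged 2.45 in Ha, 5.08 in La and 6.70 in Lb. In Hb it was 6.72, 0.837 and 1.05, with Hb1 near the older Landrace boars and the other 2 below all libraries. CYP17A1 over POR, its reductase, averaged 15.9 in Ha, 22.0 in La and 26.2 in Lb and was 24.1, 0.644 and 0.764 in Hb. CYP11A1 over FDX1, its electron donor, averaged 3.91 ± 0.714 in Ha, 3.89 ± 0.168 in La and 3.87 ± 1.05 in Lb (SD, n = 3 each). These means were close, though the Lb libraries ran from 2.66 to 4.49. In Hb the ratio was 1.44, 0.456 and 0.431. FDX1 over FDXR averaged 1.21 in Ha, 2.05 in Hb, 0.737 in La and 1.03 in Lb. Against the Leydig hormone INSL3, STAR averaged 0.507 in Ha and 0.260 in La, and 0.0351 in Hb and 0.0392 in Lb. In the Hb libraries this ratio was 0.0182, 0.0205 and 0.0667. CYP17A1 over LHCGR was 36.8, 1.62 and 4.48 in Hb, against averages of 36.2 in Ha, 30.2 in La and 33.6 in Lb.

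Within groups, several pairs of core genes varied together from boar to boar, in part because of Hb1. The correlation of log2 CPM after subtracting group means (n = 12 libraries, which share breed and age within a group) was 0.949 for STAR with CYP11A1 and 0.719 without Hb1 (n = 11). For CYP11A1 with CYP17A1 it was 0.966 and 0.902, for CYP17A1 with POR 0.812 and 0.948, and for STAR with SRD5A1 0.970 and 0.955. Other pairs were much lower without Hb1: STAR with FDX1 gave 0.847 and 0.258, FDX1 with SRD5A1 gave 0.767 and 0.219, STAR with FDXR gave 0.859 and 0.520, and FDXR with SRD5A1 gave 0.824 and 0.511. HSD3B1 gave between 0.0959 (with SRD5A1) and 0.389 (with FDX1), and between -0.187 and 0.359 without Hb1. The boar with little STAR among the older Landrace animals, Lb3, was also the one with the least SRD5A1, CYP17A1 and INSL3 of its group.

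The mRNAs whose pattern over the 12 libraries was most like that of a core gene were ranked by Pearson's r of log2 CPM among 15126 candidates with a gene symbol. These r values contain the differences between the 4 groups, and Hb1 adds to them. For STAR they were AGT, angiotensinogen (r 0.994), EBPL (0.990) and SLC1A5, an amino acid transporter (0.988), and within groups without Hb1 these gave 0.874, 0.807 and 0.769. For CYP11A1 they were AGT (0.995), MMP19, a matrix protease (0.992), and CTSC, cathepsin C (0.991), with 0.947, 0.873 and 0.703 within groups without Hb1. AGT was at 821, 712 and 632 CPM in Ha, 163, 32.5 and 25.7 CPM in Hb, 771, 579 and 647 CPM in La and 239, 321 and 123 CPM in Lb. It thus had the intermediate Hb1 seen in CYP11A1. For CYP17A1 they were RDH12, a retinol dehydrogenase (0.995), E2F3, a cell cycle factor (0.987), and SULT2A1 (0.984), with 0.868, 0.756 and 0.918 within groups without Hb1. E2F3 was at 0 CPM in Hb2 and Hb3, so its r rests in part on the prior count. RDH12 was at 220.01, 3.58 and 3.36 CPM in Hb and between 146 and 1062 CPM in the other 9 libraries. For HSD3B1 they were MRPL34, a mitochondrial ribosomal protein (0.970), WDFY4 (0.964) and CCM2L (0.963), with 0.917, 0.937 and 0.840 within groups without Hb1. An r over 0.95 was reached by 173 mRNAs with STAR, 114 with CYP11A1, 24 with CYP17A1 and 6 with HSD3B1.

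Genes within 10 kb of a core gene in the reference were looked at. Reads from a stretch that overlapping genes share can be hard to assign to either gene. Whether strand was used in counting is not given in the sources used here. BORCS7 overlaps CYP17A1 and fell by 1.13 (adjusted p 0.000949) and 1.15 (adjusted p 9.13e-05), from means of 55.2 and 67.3 CPM at 30 days to 25.2 and 29.9 CPM. It did not share the spread of CYP17A1 in Hb: the SD over the 3 Hb libraries was 3.44 CPM for BORCS7 and 822 CPM for CYP17A1. The lncRNA gene LOC110262223 overlaps FDX1. CCDC33 lies 145 bases from CYP11A1 and rose by 2.89 (adjusted p 3.15e-05) and 3.35 (adjusted p 5.27e-05), opposite to it. STYXL1 (123 bases) and TMEM120A (122 bases) flank POR, and both had higher means at 120 days than at 30 days where POR was lower: STYXL1 went from 1.66 to 2.93 CPM in Hezuo and from 1.57 to 4.94 CPM in Landrace, and TMEM120A from 11.7 to 23.5 CPM and from 13.0 to 18.3 CPM. ASH2L (1028 bases from STAR), FADS6 and GRIN2C (3237 and 2638 bases from FDXR), WBP1L (5052 bases from CYP17A1) and NSUN2 (127 bases from SRD5A1) were not called in either breed. HSD3B1 had no such neighbour. The deposited counts of STAR, CYP17A1 and SRD5A1 were whole, exactly as deposited, in all 12 libraries and those of FDXR in 8, while those of CYP11A1, FDX1, POR and HSD3B1 were not whole in any.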

How the data were processed

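Testis RNA of 12 boars (Ha, Hb, La and Lb, 3 libraries each) was measured by strand-specific RNA-seq after ribosomal RNA had been removed. According to the submitters' processing notes and the study's methods, reads were filtered with fastp 0.18.0, ribosomal reads were removed with Bowtie2 2.2.8, and the rest were mapped to Sus scrofa 11.1 with HISAT2 2.1.0 and assembled with StringTie 1.3.4. The authors deposited estimated counts for each mRNA, not normalized, of which 31.6% were not exactly whole. Which tool made these counts is not given in the sources used here. The authors deposited FPKM values too, which are scaled by transcript length and mapped fragments. The exon positions of assembled lncRNAs that the authors deposited as well were not used for any result, and the deposited counts of lncRNA transcripts were summed for 1 gene. The reads were not analysed here.

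Expected counts were rounded to whole numbers. Each of the 4 comparisons of 2 groups was fitted on its 6 libraries with edgeR 4.0.16 in R 4.3.3 (filterByExpr with a minimum count of 10, TMM, quasi-likelihood test, Benjamini-Hochberg over all mRNAs tested), and the interaction of breed and age on all 12. The code was tested on simulated data. The SE is the absolute log2 fold change divided by the square root of F. CPM used TMM over the 12 libraries, and correlations used log2 CPM with a prior count of 2. Library totals ran from 17165519 to 23758931 counts, and counting error alone is not the spread between boars.

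Alternatives were DESeq2 1.42.0, limma 3.58.1 on log2(FPKM + 1) and log2(FPKM + 0.1), no filter, at least 10 counts in each library of 1 group, 1 fit of all 12 libraries, the replicate number as a block, library totals without TMM, no fold change threshold and leaving out each library. Hb1 as the only Hb library was added after the data were seen. The focus on fits without Hb1, among those leaving out each library, was also chosen then. Figures were drawn with Python 3.11.15 and matplotlib 3.10.9.

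The members and lists were chosen with earlier results of these data known. Some genes of the lists are not reported here and enter no count or median of a list. The named genes are the 8 core genes, the lists below and, for STAR, CYP11A1, CYP17A1 and HSD3B1, the 3 mRNAs with the highest Pearson's r over the 12 libraries. Neighbours within 10 kb, the genes high in Hb1 and matches by description were chosen after the files were seen. The lists were cholesterol supply (ACBD3, DBI, DHCR7, HMGCS1, LIPE, NPC1, NPC2, SCARB1, SOAT1, SQLE, STARD3, STARD4, TSPO and VDAC1), later and side steps (CYB5A, CYP19A1, CYP21A2, HSD17B1, HSD17B2, HSD17B3, SRD5A2, SRD5A3, STS, SULT1E1 and SULT2A1), control (CEBPB, ESR1, GATA4, GATA6, LHCGR, NR0B1, NR2F2, NR4A1, NR5A1, PRKACA, PRKAR1A and SREBF2) and relatives (CYB5B, CYB5R3, FDX2, HSD3B7, STARD5 and STARD6). Marker lists were Leydig cells outside the core genes (HSD17B3, INSL3 and LHCGR), spermatogonia (DAZL, DDX4, GFRA1, ID4, KIT, NANOS2, NANOS3, SALL4, STRA8, UTF1 and ZBTB16), spermatocytes (DMC1, HORMAD1, MEIOB, PIWIL1, SPO11, SYCP1, SYCP2 and SYCP3), spermatids (ACRV1, AKAP4, ODF1, PRM1, PRM2, SPACA1, SPACA3, TNP1, TNP2 and TSSK6), Sertoli cells (AMH, CLDN11, DHH, FSHR, GATA4, INHA, SOX9 and WT1), peritubular and stromal cells (ACTA2, COL1A1, COL1A2, COL3A1, DCN, DES, LUM, MYH11, PDGFRA and PDGFRB), endothelial cells (CDH5, EMCN, KDR, PECAM1 and VWF), macrophages (AIF1, CD14, CD163, CD68 and CSF1R) and adrenal-like cells (MRAP, MC2R and CYP11B1).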

Additional observations from a re-analysis of the deposited data

Results flagged for a closer look

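The change with age differed between the breeds, by the interaction test of edgeR (log2, the change in Landrace minus that in Hezuo), for 14 genes of the lists and 1 matched by description, beside 890 of all 17332 mRNAs tested (5.14%). Of the steroid genes, the value was 1.63 for DHCR7 (1 of 14 in its list), 5.60 for CYP21A2 (1 of 8), 2.07 for NR0B1 (1 of 12) and 6.12 for LOC110260194, described as CYP11B1. CYP21A2 was at 35.6, 28.3 and 33.6 CPM in Ha, at 0.928, 0.139 and 0.0659 CPM in Hb, at 10.4, 8.09 and 8.54 CPM in La and at 0.509, 12.1 and 2.72 CPM in Lb. Its interaction was 7.35 without Hb1. Of the stromal markers (5 of 10) it was 2.54 for ACTA2, 4.02 for COL1A1, 2.83 for COL1A2, 3.19 for COL3A1 and 2.09 for PDGFRB. PECAM1 of endothelial cells (1 of 5) stood at 1.92 and AIF1 of macrophages (1 of 5) at 1.94. Germ cell markers (2 of 11 for spermatogonia and 2 of 10 for spermatids) gave 1.53 for DAZL, 1.299 for KIT, -1.83 for PRM1 and -2.96 for ACRV1. Without Hb1 the calls of KIT (1.18, adjusted p 0.0657) and ACRV1 (-2.87, adjusted p 0.0546) were lost and the other 13 were made. ACRV1 held at most 2 counts in a Ha library, so the size of its value is uncertain. The causes were not tested.

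Outside the table of coding genes, the lncRNA gene LOC110262223, which overlaps FDX1, reached a summed estimated count of 246 over its 18 transcripts in Hb3, the highest of the 12 libraries. The sums were 33.8, 19.4 and 37.7 counts in Ha, 145, 85.6 and 246 in Hb, 61.5, 60.6 and 68.6 in La and 153, 184 and 125 in Lb. Counts were higher in each older library than in each younger one, while FDX1 was lower. The difference was not tested.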

How the results depend on the processing

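Over the alternatives other than the one with no fold change threshold, 579 values of a core gene kept their direction and whether they were called (1 of them, STAR in Hb vs Lb by DESeq2, has no adjusted p), 28 passed a threshold that they had missed, 3 missed one that they had passed, and 14 turned direction. In Ha vs Hb the number of core genes called was between 6 and 8, and CYP17A1 was called by limma (-5.77 and -5.88), without Hb1 and with Hb1 as the only Hb library. In La vs Lb it was between 4 and 7. Lost calls were CYP11A1 (-1.56) and CYP17A1 (-1.20) with all 12 libraries in 1 fit, and CYP17A1 without Lb3 (-0.98). HSD3B1 was called in La vs Lb by limma (-1.01 and -1.06). In Ha vs La core genes were called only with no fold change threshold (2, FDX1 and CYP17A1), and mRNAs called went from 1192 to 507 with limma on log2(FPKM + 1) and 3333 with no fold change threshold.

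In Hb vs Lb POR was the 1 core gene called by DESeq2 (1.22), limma (1.33 and 1.40) and all 12 libraries in 1 fit (1.19), and 4 were called without Hb1 (range over libraries left out 0 to 4). The mRNAs called went from 628 to 1176 with DESeq2, 1258 with all 12 libraries in 1 fit and 316 with Hb1 as the only Hb library, and to between 97 and 1029 when 1 library was left out. For the interaction, mRNAs called went from 890 to 1363 with DESeq2 and 1365 with limma on log2(FPKM + 0.1), and to between 437 and 1242 with 1 library left out. Core genes called were 3 (STAR 3.61, CYP11A1 3.42 and POR 1.22) with limma on log2(FPKM + 1), 1 with log2(FPKM + 0.1) (CYP11A1 3.52) and between 0 and 7 with 1 library left out.

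Directions turned for SRD5A1 in Ha vs Hb (0.55 with Hb1 as the only Hb library), in La vs Lb (-0.25 and -0.27 by limma, -0.085 without Lb1, against 0.64 without Lb3), in Ha vs La (0.10 without Ha1, 0.04 without Ha2, 0.02 without La2, against -0.29 without Ha3) and for Hb vs Lb (-0.30 with Hb1 alone). POR turned in Ha vs La without La1 (-0.020, against 0.30 without La2), and FDX1 in Hb vs Lb without Hb3 (-0.075, against 0.94 without Hb1) and with Hb1 alone (-0.60). With Hb1 alone the interaction turned for FDX1 (-0.22), FDXR (-0.20) and SRD5A1 (-0.32). The cause was not tested. A lone library of a group is assumed to vary like the other group.

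The replicate numbers share only a number between groups: same-number deviations correlated between -0.0222 and 0.0527. In Ha vs Hb each library correlated best with its own number, though at an r of 0.0527 or less. In the other comparisons no library did, and the design does not pair the boars. With the replicate block, 7 core genes and 8430 mRNAs were called in Ha vs Hb (CYP17A1 at -5.97), 6 and 7770 in La vs Lb, no core gene and 1030 mRNAs for Ha vs La, no core gene and 154 mRNAs for Hb vs Lb, and no core gene and 672 mRNAs for the interaction. Limits are 3 boars a group, 1 older Hezuo boar unlike the other 2, bulk tissue in which markers of several cell types differ with age, and estimated counts whose strand setting is not given in the sources used here. With 17165519 counts or more a library, depth limits genes under 1 CPM, such as CYP19A1 and MC2R, and not the core genes.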
